A study of Mus musculus with 2 samples.

Results

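The genes of DNA replication and of the nucleotide supply that feeds it were compared in embryonic mouse brain, between the subventricular zone (SVZ) and the cortex. They are 44 genes listed by name, out of 24411 genes in the count tables. All 44 had reads in both libraries, all passed the expression minimum used below, and all 44 had the higher level in the SVZ library. The size of that difference varied widely, from 1.36-fold for *Orc6*, a subunit of the complex that marks replication origins, to 62.6-fold for *Asf1b*, a chaperone that carries new histones to replicating DNA.

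A cell copies its genome in S phase by a fixed series of steps. Origins are first licensed by loading the MCM helicase, which is then switched on together with CDC45 and the GINS complex, after which polymerases held by a sliding clamp copy both strands, the pieces of the lagging strand are joined, and new DNA is wrapped in histones. Deoxynucleotides are made alongside by ribonucleotide reductase and the thymidylate enzymes, and in the embryonic forebrain the dividing cells lie in the germinal zones next to the ventricles, whereas the neurons of the cortex have left the cell cycle.

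Fresh-frozen mouse brain at embryonic day 16.5 was sectioned and stained, and an area of the SVZ and an area of the cortex were cut out by laser capture microdissection (LCM), in which a laser frees chosen tissue under the microscope. Bulk RNA-seq gave 2 libraries, 1 from the SVZ and 1 from the cortex, which in the study serve as a benchmark for a light-directed barcoding method. No strain, genotype or treatment is given in the sources used here, nor whether both areas came from the same embryo. The cut areas are mixtures of cell types defined by their position in a stained section, so in these bulk samples fewer cells of a type and less RNA per cell cannot be told apart.

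The SVZ was sequenced deeper, with 51435667 gene-assigned reads beside 22050693 in the cortex. A read therefore equals 0.0194 CPM for the SVZ and 0.0453 CPM for the cortex. Levels are given as reads and as CPM, which are counts scaled to 1000000 gene-assigned reads of the library. Differences are given as a log2 ratio, SVZ over cortex, of these CPM values, with the exact 95% Clopper-Pearson interval of the read counts. With 1 library per area there is no replicate check and no p-value, and the intervals describe the counting error of reads only. PCR duplicates could not be recognised, so the intervals may be too narrow even for that error. Background shares are taken over the 12738 genes whose mean level was 1 CPM or more.

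The median log2 ratio of the 44 genes was 1.98, with quartiles at 1.43 and 3.31, beside a median of 0.11 over all genes. A higher CPM in the SVZ library was found for 44 of 44, where the share over all genes was 54.9%. For each of the 44 the whole counting interval also lay above equal levels, against 48.2% of all genes. Of the 44 genes, 38 were higher in the SVZ by 2-fold or more (20.0% of all genes) and 22 by 4-fold or more (10.2% of all genes). None was 4-fold higher in the cortex library, a difference seen in 7.01% of all genes. The limit of 4-fold ran through the middle of the group, and 8 genes lay within 0.25 log2 units of it.

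**Figure D1:**
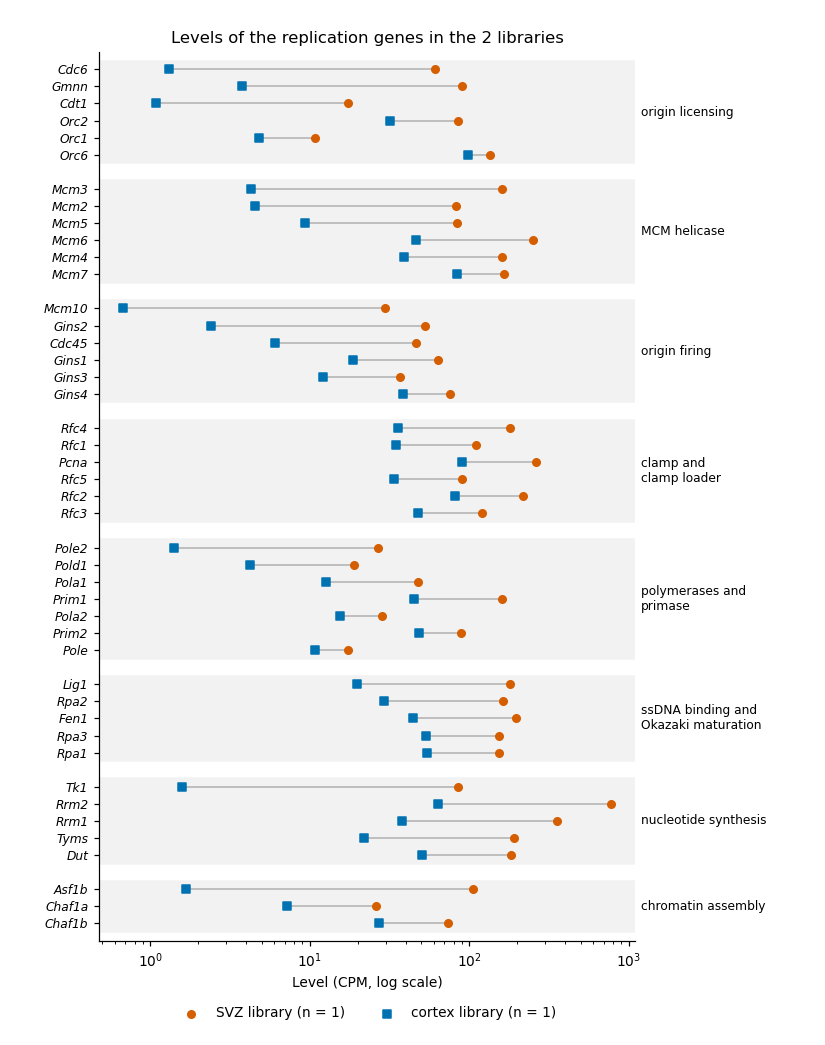
Level of each of the 44 genes (x axis, CPM on a log scale) in the SVZ library (circles) and the cortex library (squares), 1 library each, grouped by role and ordered within a role by the log2 ratio. The SVZ levels lie between 10.8 and 774 CPM and the cortex levels between 0.680 and 98.8 CPM, and every circle lies to the right of its square.

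The plot of levels by library shows that the genes were less alike in the cortex than in the SVZ. None of the 44 was under 5 CPM in the SVZ, and 12 were in the cortex. Per exon length (TPM, reads divided by exon length and scaled to 1000000 over all genes of known length), the levels spanned 149.7-fold in the SVZ, from *Pole* at 5.90 TPM to *Rrm2* at 883 TPM. In the cortex they spanned 585-fold, from *Mcm10* at 0.388 TPM to *Rpa3* at 227 TPM. The cortex level was under 5% of the SVZ level for 7 genes, at least 50% of it for 6, and between these for the other 31. Summed over the group, the 44 genes took 0.562% of the gene-assigned reads of the SVZ library and 0.129% of those of the cortex library.

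Genes that license origins showed both ends of this range, with a median log2 ratio of 2.70 over 6 genes. The licensing factors proper had few reads in the cortex library. *Cdc6*, which brings the helicase to the origin complex, had 3148 reads (61.2 CPM) in the SVZ and 29 reads (1.32 CPM) in the cortex, a log2 ratio of 5.54 (interval 5.02 to 6.12). *Cdt1*, its partner in loading, had 890 reads (17.3 CPM) and 24 reads (1.09 CPM), a log2 ratio of 3.99 (3.41 to 4.64). *Gmnn* encodes geminin, the protein that binds CDT1 and blocks a further round of licensing, and it was higher too, at 4634 reads (90.1 CPM) against 83 reads (3.76 CPM) and a log2 ratio of 4.58 (4.27 to 4.91). The loading factor and its inhibitor thus stood on the same side of the comparison.

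The 3 subunits of the origin recognition complex (ORC) in the group differed far less. *Orc1*, the subunit that comes and goes with the cell cycle, was sparse in both libraries, with 557 reads (10.8 CPM) in the SVZ and 106 reads (4.81 CPM) in the cortex and a log2 ratio of 1.17 (0.87 to 1.49). *Orc2*, a core subunit, had 4371 reads (85.0 CPM) and 703 reads (31.9 CPM), a log2 ratio of 1.41 (1.30 to 1.53). In GENCODE *Orc2* overlaps *Nif3l1* on the opposite strand by 1150 exon bases. The libraries do not mark strand, so reads there could come from either gene. The count of *Orc2* did not change in either library when the deposited counts of each strand were summed. *Orc6* gave the smallest difference of the 44 genes, with 6919 reads (134.5 CPM) against 2178 reads (98.8 CPM) and a log2 ratio of 0.45 (0.38 to 0.52). *Orc6* supplied 7.68% of all reads of the 44 genes in the cortex, compared with 2.39% in the SVZ.

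The 6 genes of the MCM2-7 ring, the helicase that unwinds the double helix, split in the same way although their products work as 1 complex. *Mcm3* led with 8313 reads (161.6 CPM) in the SVZ and 94 reads (4.26 CPM) in the cortex, a log2 ratio of 5.24 (4.95 to 5.55). *Mcm2* followed with 4284 reads (83.3 CPM) and 101 reads (4.58 CPM), a log2 ratio of 4.18 (3.90 to 4.48). *Mcm5* had 4322 reads (84.0 CPM) and 205 reads (9.30 CPM), a log2 ratio of 3.18 (2.97 to 3.39). The remaining members of the ring kept a clear level in the cortex library. *Mcm6* had 12999 reads (253 CPM) against 1018 reads (46.2 CPM), a log2 ratio of 2.45 (2.36 to 2.55), and *Mcm4* had 8274 reads (160.9 CPM) against 862 reads (39.1 CPM), a log2 ratio of 2.04 (1.94 to 2.14). *Mcm7* had 8504 reads (165.3 CPM) against 1858 reads (84.3 CPM), a log2 ratio of 0.97 (0.90 to 1.05), under 2-fold. Of the 75-base words of *Mcm7* transcripts, 13.2% also occur in another gene, and *Gm5487* shares more of them than any other. Reads from such stretches are not counted when they map to several places or to more than 1 gene.

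RefSeq promoter windows, from 250 bases before to 50 bases after the start, were searched for the letters of an E2F site, the element through which E2F factors act on S-phase genes. The words searched were TTTCCCGC, TTTGGCGC, TTTGCCGC and TTTCGCGC on both strands. Promoter stretches of *Mcm6* and *Mcm5* are shown because they hold 3 and 2 of these words, in capitals. The *Mcm6* stretch lies at chr1:128359706-128359855 on the minus strand of GRCm38.p6 and the *Mcm5* stretch at chr8:75109346-75109508 on the plus strand, and both end at the base before the RefSeq start. In each, a pair of words on opposite strands overlaps by 4 bases and is printed as 1 run of capitals.
Mcm6: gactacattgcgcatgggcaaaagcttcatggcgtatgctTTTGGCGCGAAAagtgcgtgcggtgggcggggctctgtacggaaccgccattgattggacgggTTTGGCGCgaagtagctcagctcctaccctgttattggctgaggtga
Mcm5: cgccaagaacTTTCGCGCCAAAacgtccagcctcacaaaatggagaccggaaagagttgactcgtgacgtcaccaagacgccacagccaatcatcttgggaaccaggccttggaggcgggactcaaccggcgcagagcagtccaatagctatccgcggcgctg

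The origin firing genes turn the loaded helicase on, and they again ran from steep to shallow, with a median log2 ratio of 2.36 over 6 genes. *Mcm10*, a factor needed once the helicase starts to move, had 1520 reads (29.6 CPM) in the SVZ and 15 reads (0.680 CPM) in the cortex, and a log2 ratio of 5.44 (4.71 to 6.28). *Cdc45*, which binds the MCM ring to form the active helicase, had 2397 reads (46.6 CPM) and 133 reads (6.03 CPM), a log2 ratio of 2.95 (2.70 to 3.21). The 4 GINS genes encode the other partner of the active helicase. *Gins1* had 3264 reads (63.5 CPM) against 411 reads (18.6 CPM), a log2 ratio of 1.77 (1.62 to 1.92), *Gins3* had 1893 reads (36.8 CPM) against 269 reads (12.2 CPM), a log2 ratio of 1.59 (1.41 to 1.78), and *Gins4* had 3888 reads (75.6 CPM) against 851 reads (38.6 CPM), a log2 ratio of 0.97 (0.86 to 1.08).

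*Gins2* stood apart from the other GINS genes and its value depended on how reads were counted. It had 2714 reads (52.8 CPM) in the SVZ and 53 reads (2.40 CPM) in the cortex, a log2 ratio of 4.46 (4.06 to 4.88). In GENCODE *Gins2* overlaps exons of *Gse1* on the opposite strand by 2758 exon bases, and reads in such stretches are left out when strand is ignored. When the deposited counts of each strand were summed instead, *Gins2* gained 26.2% in the SVZ and 287% in the cortex, and its log2 ratio was 2.84. Because the libraries do not mark strand, reads of *Gse1* are part of that gain, in a share that may differ between the libraries. The ratio of *Gins2* is therefore uncertain and need not lie between these values.

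**Figure D2:**
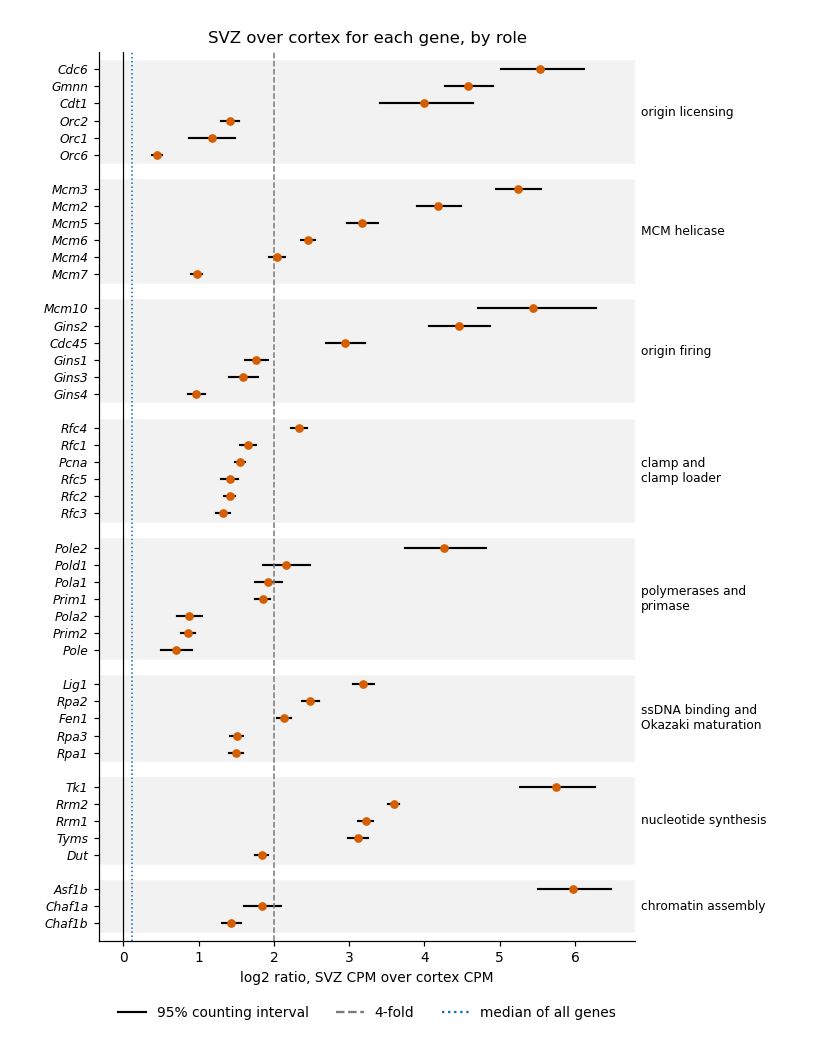
Difference between the libraries (x axis, log2 of SVZ CPM over cortex CPM) for each of the 44 genes (points) with its 95% counting interval (bars), grouped by role. The dashed line marks 4-fold and the dotted line the median of all genes at 0.11, and the points run from 0.45 for *Orc6* to 5.97 for *Asf1b*, while those of the clamp and clamp loader lie between 1.32 and 2.33.

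The clamp and clamp loader spanned the narrowest range of the 8 roles, as the plot of ratios by role shows. *Pcna* encodes the ring that tethers polymerases to DNA and had 13536 reads (263 CPM) in the SVZ and 1986 reads (90.1 CPM) in the cortex, a log2 ratio of 1.55 (1.48 to 1.62). The 5 subunits of replication factor C (RFC), which opens the ring and sets it on DNA, had log2 ratios between 1.32 and 2.33, and every one had between 33.7 and 82.0 CPM in the cortex. *Rfc4* was the steepest, with 9341 reads (181.6 CPM) against 794 reads (36.0 CPM), and *Rfc3* the shallowest, with 6172 reads (120.0 CPM) against 1059 reads (48.0 CPM). The others were close together. *Rfc1*, the large subunit, had 5675 reads (110.3 CPM) against 773 reads (35.1 CPM), a log2 ratio of 1.65, *Rfc2* had 11224 reads (218 CPM) against 1809 reads (82.0 CPM), a log2 ratio of 1.41, and *Rfc5* had 4627 reads (90.0 CPM) against 744 reads (33.7 CPM), also a log2 ratio of 1.41. *Rfc4* overlaps *Eif4a2* on the other strand by 194 exon bases and gained 16.3% and 16.6% when the stranded counts were summed, which left its log2 ratio at 2.33. *Rfc2* overlaps *Lat2* on the other strand by 952 exon bases, and 13.9% of its 75-base words also occur in another gene. *Rfc5* overlaps *Wsb2* there by 499 exon bases, with 9.83% of its words shared. The summed stranded counts left both log2 ratios at 1.41. *Pcna* shares 13.8% of its 75-base words with another gene, and *Pcna-ps2* shares more of them than any other.

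Among polymerases and primase the regulatory subunit of polymerase epsilon was the exception to a shallow group. *Pole2* had 1379 reads (26.8 CPM) in the SVZ and 31 reads (1.41 CPM) in the cortex, a log2 ratio of 4.25 (3.74 to 4.82). *Pole*, which encodes the catalytic subunit of the same leading-strand enzyme, had 900 reads (17.5 CPM) and 237 reads (10.7 CPM), a log2 ratio of 0.70 (0.50 to 0.92). *Pold1*, the catalytic subunit of the lagging-strand polymerase delta, lay between them with 970 reads (18.9 CPM) and 93 reads (4.22 CPM), a log2 ratio of 2.16 (1.85 to 2.48). The intervals of these 3 genes did not overlap.

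Polymerase alpha and primase, which lay down the RNA-DNA primers, formed pairs of unequal partners. The catalytic subunits were *Pola1*, with 2475 reads (48.1 CPM) against 279 reads (12.7 CPM) and a log2 ratio of 1.93 (1.75 to 2.11), and *Prim1*, with 8328 reads (161.9 CPM) against 991 reads (44.9 CPM) and a log2 ratio of 1.85 (1.75 to 1.95). Their accessory subunits showed the smaller differences, under 2-fold. *Pola2* had 1469 reads (28.6 CPM) against 343 reads (15.6 CPM), a log2 ratio of 0.88 (0.71 to 1.05), and *Prim2* had 4551 reads (88.5 CPM) against 1075 reads (48.8 CPM), a log2 ratio of 0.86 (0.76 to 0.96). The intervals of the catalytic subunits did not overlap those of the accessory subunits. The *Pola1* promoter is shown as one outside the MCM genes that holds an E2F word, in capitals as its reverse complement, within chrX:93632156-93632305 on the minus strand of GRCm38.p6.
Pola1: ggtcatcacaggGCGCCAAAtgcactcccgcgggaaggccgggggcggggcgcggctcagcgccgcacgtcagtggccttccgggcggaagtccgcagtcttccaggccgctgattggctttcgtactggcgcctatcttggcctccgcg

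Genes that protect single strands and finish the lagging strand were all at least 2-fold higher, with a median log2 ratio of 2.14 over 5 genes. *Rpa1* and *Rpa3*, the large and small subunits of the single-strand binding protein RPA, were nearly the same, at 7919 reads (154.0 CPM) against 1203 reads (54.6 CPM) and 7862 reads (152.9 CPM) against 1187 reads (53.8 CPM), with log2 ratios of 1.50 (1.41 to 1.59) and 1.51 (1.42 to 1.59). *Rpa2*, the middle subunit, had 8389 reads (163.1 CPM) against 643 reads (29.2 CPM), a log2 ratio of 2.48 (2.37 to 2.60), outside the intervals of its partners. The genes of the steps that follow lay on either side of *Rpa2*. *Fen1*, the nuclease that trims the flap of each Okazaki fragment, had 10131 reads (197.0 CPM) against 988 reads (44.8 CPM), a log2 ratio of 2.14 (2.04 to 2.23). In GENCODE *Fen1* overlaps *Gm10143* on the opposite strand by 1909 exon bases, and 73.7% of its 75-base words also occur in another gene. The libraries do not mark strand, so reads there could come from either gene. The count of *Fen1* did not change in either library when the stranded counts were summed. *Lig1*, the ligase that seals the nick, had 9335 reads (181.5 CPM) against 439 reads (19.9 CPM), a log2 ratio of 3.19 (3.05 to 3.33).

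Nucleotide synthesis had the highest median of the 8 roles, 3.22 over 5 genes. *Rrm2*, the small subunit of ribonucleotide reductase, had 39809 reads (774 CPM) in the SVZ and 1417 reads (64.3 CPM) in the cortex, a log2 ratio of 3.59 (3.51 to 3.67). *Rrm1*, the large subunit, had 18178 reads (353 CPM) and 838 reads (38.0 CPM), a log2 ratio of 3.22 (3.12 to 3.32). The subunits of this enzyme therefore lay close together, though their intervals did not meet. *Rrm2* alone supplied 13.8% of the SVZ reads of the 44 genes and 5.00% of their cortex reads.

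The thymidylate enzymes covered a wider range. *Tk1*, the thymidine kinase of the salvage route, had 4382 reads (85.2 CPM) against 35 reads (1.59 CPM), a log2 ratio of 5.75 (5.27 to 6.27), second in the group. *Tyms*, which makes thymidylate from deoxyuridylate, had 9851 reads (191.5 CPM) against 487 reads (22.1 CPM), a log2 ratio of 3.12 (2.98 to 3.25). *Dut*, which breaks down dUTP and so keeps uracil out of DNA, was the shallowest at 9356 reads (181.9 CPM) against 1123 reads (50.9 CPM), a log2 ratio of 1.84 (1.75 to 1.93). The 5 nucleotide genes together supplied 28.2% of the SVZ reads of the 44 genes and 13.7% of their cortex reads. The *Rrm2* promoter is shown as the counterpart of those above, since its gene had the highest TPM of the group in the SVZ while none of the E2F words occurs in its window. It lies within chr12:24708081-24708240 on the plus strand of GRCm38.p6.
Rrm2: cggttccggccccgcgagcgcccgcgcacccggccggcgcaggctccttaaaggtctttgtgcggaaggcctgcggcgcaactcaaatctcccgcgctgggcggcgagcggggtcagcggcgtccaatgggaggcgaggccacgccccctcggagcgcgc

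Chromatin assembly held the highest ratio of all. *Asf1b*, which hands histones H3 and H4 to the assembly factor, had 5405 reads (105.1 CPM) in the SVZ and 37 reads (1.68 CPM) in the cortex, a log2 ratio of 5.97 (5.50 to 6.48). The assembly factor itself, which binds PCNA and deposits these histones behind the fork, differed less. *Chaf1a* had 1339 reads (26.0 CPM) against 160 reads (7.26 CPM), a log2 ratio of 1.84 (1.61 to 2.09), and *Chaf1b* had 3792 reads (73.7 CPM) against 603 reads (27.3 CPM), a log2 ratio of 1.43 (1.31 to 1.56). *Chaf1a* overlaps *Ubxn6* on the opposite strand by 4648 exon bases in GENCODE, and 48.2% of its 75-base words also occur in another gene. Without strand, reads there could come from either gene. The count of *Chaf1a* did not change in either library when the stranded counts were summed.

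Subunits of a complex were compared with each other on the TPM scale. The MCM2-7 genes were within 2.38-fold of each other in the SVZ library, from 60.8 TPM for *Mcm5* to 144.5 TPM for *Mcm6*. In the cortex library they were 20.9-fold apart, from 3.84 TPM for *Mcm2* to 80.4 TPM for *Mcm7*. The ring genes were thus closer to each other in the SVZ than in the cortex. GINS widened from 4.31-fold in the SVZ to 46.4-fold in the cortex, but *Gins2*, with its uncertain count, was the lowest of the 4 in the cortex. RFC did not widen, at 6.04-fold and 4.99-fold, nor did RPA, at 7.62-fold and 7.57-fold. Polymerase alpha with primase was at 11.3-fold and 11.9-fold, and ribonucleotide reductase at 3.99-fold and 3.08-fold.

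**Figure D3:**
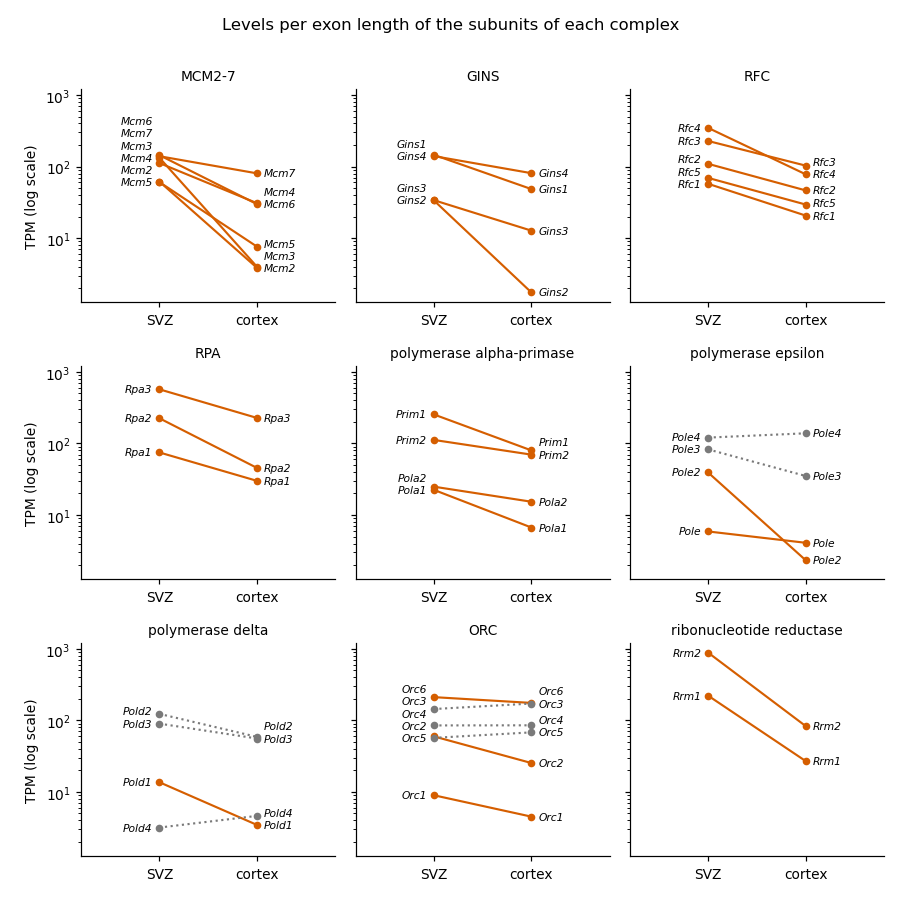
Level per exon length (y axis, TPM on a log scale) of each subunit in the SVZ and cortex libraries for 9 complexes, with solid lines for the 44 genes and dotted lines for other subunits of the same complex. MCM2-7 subunits fan out from 2.38-fold apart in the SVZ to 20.9-fold apart in the cortex, whereas the lines of RFC and of polymerase alpha with primase run nearly side by side.

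Other subunits of the same complexes, added after the values had been seen, lay mostly nearer to equal levels, as the plot of subunits by complex shows. ORC was completed by *Orc3*, *Orc4* and *Orc5*, with log2 ratios of -0.08, 0.17 and -0.08, so that the 6 ORC genes ranged from -0.08 to 1.41. In polymerase epsilon the histone-fold subunits *Pole3* and *Pole4* had log2 ratios of 1.41 and -0.02 beside 4.25 for *Pole2*. In polymerase delta *Pold2*, *Pold3* and *Pold4* had 1.25, 0.87 and -0.37 beside 2.16 for *Pold1*, and *Pold4* rested on 76 and 42 reads. A higher SVZ level was therefore not a property of every subunit of the replication machinery.

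A wider list of 45 other replication genes had 44 with a mean level of 1 CPM or more. Of these 44, 36 were higher in the SVZ library (54.9% of all genes) and 16 by 4-fold or more, 36.4% beside 10.2% of all genes. The median log2 ratio of the 44 was 1.41. The highest were *Esco2*, which ties sister chromatids together during S phase, at 81.7 CPM against 0.544 CPM and a log2 ratio of 7.23 (6.42 to 8.18), and *Clspn*, a mediator of the replication checkpoint, at 40.0 CPM against 0.454 CPM and 6.46 (5.58 to 7.53). They were followed by *Top2a*, the topoisomerase of dividing cells, at 515 CPM against 6.39 CPM and 6.33 (6.09 to 6.58). *Dtl*, which targets CDT1 for destruction, had a log2 ratio of 4.71, *Uhrf1*, which brings the maintenance DNA methyltransferase to new DNA, 4.44, and *Mms22l*, which acts at stalled forks, 4.22.

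At the other end, several replication genes were level or slightly higher in the cortex. *Mcmbp*, a binding protein of the MCM ring, had a log2 ratio of -0.31, *Chtf8*, part of an alternative clamp loader, -0.21, and *Cdc7*, the kinase that fires origins, -0.21. *Top2b*, which also encodes a topoisomerase, stood at 394 CPM in the SVZ and 457 CPM in the cortex. Its log2 ratio was -0.21 (-0.25 to -0.18), next to 6.33 for its relative *Top2a*. *Orc3* and *Orc5* completed this end of the list. None of the 44 tested genes of this list was 4-fold higher in the cortex.

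The 27 other genes of nucleotide synthesis were nearer to the background. Their median log2 ratio was 0.48, with 17 higher in the SVZ (54.9% of all genes) and 10 higher in the cortex. At least 4-fold higher in the SVZ were 2, or 7.41%, beside 10.2% of all genes. One of these was *Shmt1*, which supplies one-carbon units for thymidylate synthesis, at 23.2 CPM against 5.03 CPM and a log2 ratio of 2.20 (1.92 to 2.50). *Umps* of pyrimidine synthesis had 1.65, the purine enzymes *Adsl* and *Paics* 1.41 and 1.26, and the deoxycytidine kinase *Dck* 1.22. The genes lowest in the SVZ were *Atic* of purine synthesis at -1.10, the kinases *Guk1*, *Tk2*, *Cmpk1* and *Nme1* at -0.88, -0.49, -0.41 and -0.27, and *Rrm2b*, the ribonucleotide reductase subunit of resting cells, at -0.68 (-0.83 to -0.52) with 16.7 CPM against 26.8 CPM. *Rrm2b* and *Rrm2* therefore lay on opposite sides of equal levels, as did the mitochondrial *Tk2* and the cytosolic *Tk1*. *Impdh1*, at a mean just under 10 CPM and named after its value was seen, was the one gene of both lists 4-fold higher in the cortex, with 145 reads against 360 reads and a log2 ratio of -2.53.

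Mitosis genes gave larger values than the replication genes. The 36 genes of the mitosis list had a median log2 ratio of 5.74. Higher in the SVZ by 4-fold or more were 35, or 97.2%, beside 50.0% of the 44 replication genes and 10.2% of all genes. Only *Asf1b* and *Tk1* of the 44 lay above that median. The extremes were *Kif2c*, a motor that releases chromosomes from microtubules, with 4623 reads in the SVZ and 0 in the cortex, at least 661-fold higher against a floor of 3 reads, and *Aspm*, a spindle pole protein, with 5674 reads against 6. The lowest of the list were the condensin subunits *Ncapd2*, at 1.73, and *Smc2*, at 2.71.

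DNA repair and housekeeping genes had smaller median differences than the replication genes, though above the all-gene median of 0.11. The 30 repair genes had a median log2 ratio of 0.63, 26 were higher in the SVZ, 22 with the whole interval above equal levels, and 3, or 10.0%, were at least 4-fold higher in the SVZ. *Ung*, which removes uracil from DNA, was the highest of them with a mean level of 10 CPM or more, at 3.93 (3.56 to 4.32), followed by *Xrcc5* at 1.47, and *Xpc* and *Polb* were the lowest at -0.39 and -0.06. Of the 13 housekeeping genes, 9 were higher in the SVZ, beside 54.9% of all genes. Their median was 0.58, from -0.74 for *Ywhaz* and -0.09 for *Actb* to 2.06 for *B2m*. Of the 44 replication genes, 38 lay above the upper quartile of the repair list.

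**Figure D4:**
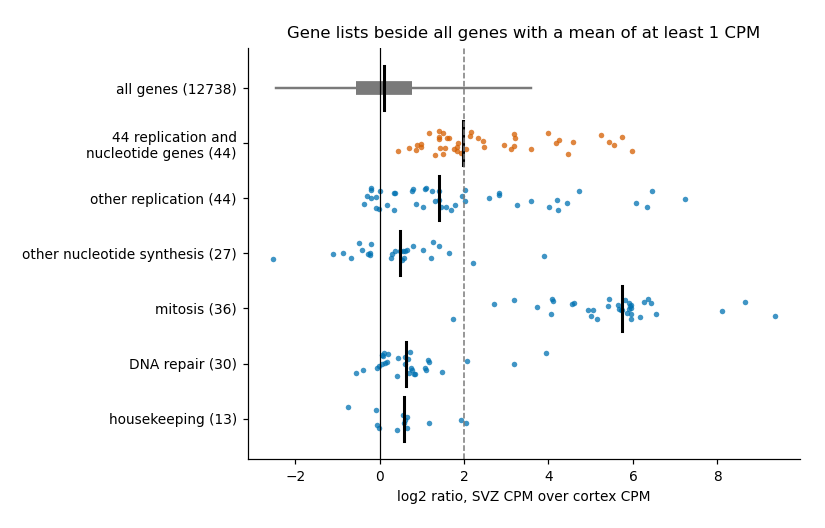
Difference between the libraries (x axis, log2 of SVZ CPM over cortex CPM) for all genes with a mean level of 1 CPM or more (thin bar, percentiles 5 to 95, thick bar, quartiles) and for the genes of each list (points, with the number of genes), with black ticks at the medians, a dashed line at 4-fold and *Kif2c* drawn at its lower bound. The medians are 0.11 for all genes, 1.98 for the 44 genes, 1.41 and 0.48 for other replication and nucleotide genes, 5.74 for mitosis, 0.63 for repair and 0.58 for housekeeping.

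Promoter words were counted in the 36 of the 44 genes that have a RefSeq promoter window, and the remaining 8 were *Mcm4*, *Gmnn*, *Prim2*, *Gins1*, *Gins2*, *Gins4*, *Pole* and *Rfc2*. An E2F word occurred in 13 of 36, or 36.1%, compared with 2.60% of 27025 genes with a window and 4.67% of those whose mean level was 1 CPM or more. The 13 were *Orc1*, *Cdc6*, *Cdt1*, *Mcm3*, *Mcm5*, *Mcm6*, *Mcm7*, *Gins3*, *Rfc3*, *Pola1*, *Pold1*, *Pole2* and *Lig1*, so that licensing and helicase genes made up 7 of them. Their log2 ratios ran from 0.97 to 5.54 with a median of 2.45, and those of the 23 without a word from 0.45 to 5.97 with a median of 1.85. The range with a word lay inside the range without one, and the genes with the highest ratios, *Asf1b* and *Tk1*, had none.

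Elements known from cell-cycle promoters were searched in the same windows. The CCAAT box (CCAAT on both strands) occurred in 23 of 36, or 63.9%, beside 41.1% of all promoters and 43.3% of those of genes whose mean level was 1 CPM or more. The cell-cycle homology region (CHR, TTTGAA on both strands), an element of genes that peak in mitosis, occurred in 5 of 36, or 13.9%, beside 20.2% of all promoters, 13.8% of those of genes at this mean level, and 73.3% of the 30 mitosis genes with a window. In the mitosis list an E2F word occurred in 3 of 30, or 10.0%. These matches describe the letters of the windows alone.

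**Figure D5:**
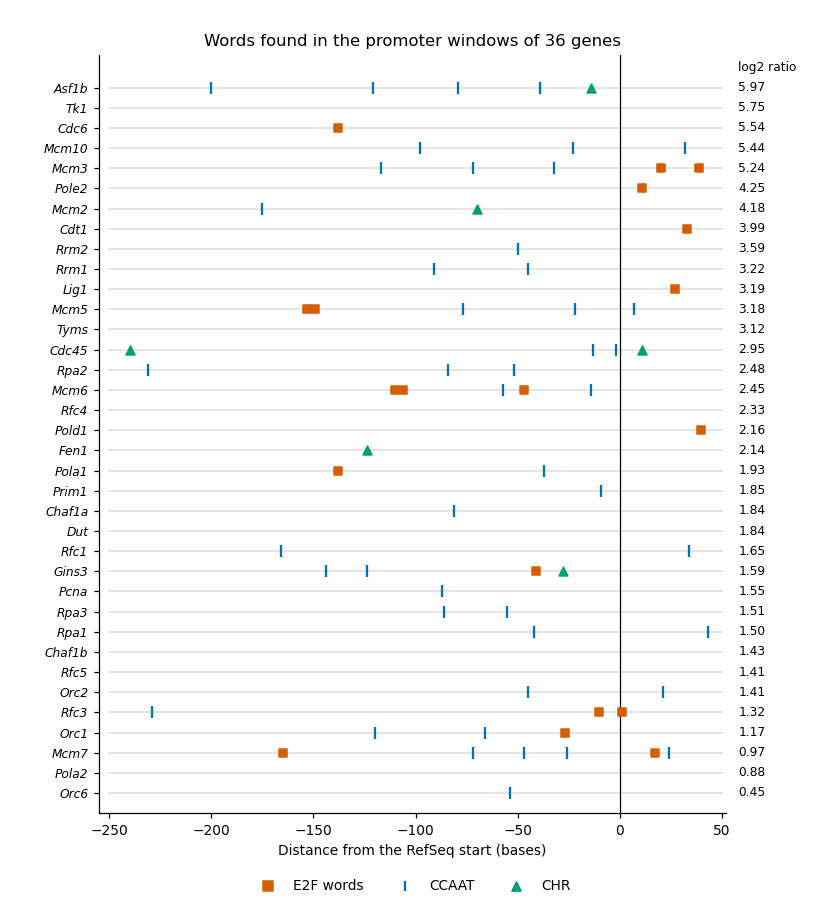
Positions of the E2F words (squares), CCAAT (ticks) and CHR (triangles) in the promoter windows of 36 genes (x axis, bases from the RefSeq start), ordered by the log2 ratio printed on the right. E2F words occur from the top to the bottom of the order, in *Cdc6* at 5.54 as in *Mcm7* at 0.97.

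The areas were checked against cell type markers. All 10 apical progenitor genes and all 8 intermediate progenitor genes were higher in the SVZ by 4-fold or more, with summed levels of 6993 CPM against 169 CPM and 1254 CPM against 63.7 CPM. The most counted of these were *Fabp7*, at 4973 CPM against 39.0 CPM, and *Gadd45g*, at 341 CPM against 14.6 CPM. All 13 neuron genes were higher in the cortex library, at 10746 CPM against 2536 CPM in sum, with *Gap43* the most counted there and *Dcx* in the SVZ. *Neurog1* was at 0 reads in the cortex and *Nefl* at 0 reads in the SVZ. The labelled areas matched their markers, and the neuron genes were nonetheless present in the SVZ piece.

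Markers of other cells moved with the replication genes in part. Of 11 microglia genes 10 had a mean level of 1 CPM or more and all 10 were higher in the SVZ, at 107 CPM against 31.2 CPM in sum, with *Trem2* at 0 reads in the cortex. The choroid plexus list summed to 245 CPM against 0.907 CPM, nearly all from *Ttr* at 12363 reads against 16, while *Folr1*, *Otx2* and *Kcne2* were at 0 reads in the cortex and *Kl* at 0 in both. The erythroid list summed to 27.2 CPM against 12.3 CPM, with *Alas2* the most counted, *Klf1* at 0 in the cortex, and *Hba-a1*, *Hba-a2*, *Hbb-bs*, *Hbb-bt* and *Gata1* listed at 0 in both. Blood vessel genes, led by *Rgs5*, summed to 158 CPM against 119.6 CPM, and ventral telencephalon genes, led by *Gad2* in the SVZ and *Lhx6* in the cortex, to 159 CPM against 99.3 CPM with *Nkx2-1* at 0 in both. Oligodendrocyte precursor genes, led by *Pdgfra*, summed to 9.33 CPM against 11.2 CPM, and meninges genes, led by *Col1a2* in the SVZ and *Col3a1* in the cortex, to 4.59 CPM against 9.39 CPM with *Col1a1* at 0 in the SVZ. The part of these cells in the levels of the replication genes was not tested.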

How the data were processed

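RNA was measured by LCM and bulk RNA-seq in 1 SVZ and 1 cortex library. Per the study's methods, 10 µm sections were stained, RNA was amplified with a low-input kit, and read 1 of the 75-nt pairs was trimmed with cutadapt 4.1 and mapped to mm10 with STAR 2.7.9a, which counted reads per gene. The deposited tables hold raw whole counts, with strand ignored or for each strand, from which reads that map to several places or to more than 1 gene were left out by the counter. A merged table of the same series by the authors, with CPM and fold changes, was not used here.

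CPM was computed here on the gene-assigned total; gene-assigned reads were 59.0% and 59.1% of all reads in the SVZ and cortex libraries, and the remaining 41.0% and 40.9% entered no total. A count of 0 was set at 3 reads and the ratio called a bound. The 44 genes were those named by the rule; members, gene lists and complexes were chosen with earlier results of these data known, and the grouping by complex after the values were seen. Named in the text are the 44 genes, the 6 highest and 6 lowest of each wider pathway list and the 2 highest and 2 lowest of each comparison list among genes of 10 CPM or more on average, the most counted marker of each list, defining markers at 0 reads, and overlapping genes. Some genes that meet this rule are not reported here. Exon lengths and overlaps came from GENCODE M21 (GRCm38), matched for 96.2% of the genes compared (mean level 1 CPM or more); the annotation used for counting was the study's own, so lengths are approximate. Promoters came from RefSeq (GRCm38.p6) by symbol. Protein sequences were not used here. Alternatives were scaling by TMM or upper quartiles (edgeR 4.0.16), or by DESeq2 1.42.0 size factors, library totals leaving out the 10 top genes of either library, summed stranded counts, a pseudocount of 1 CPM, other minimums and folds, and the mean. R 4.3.3, Python 3.11.15, numpy 2.4.6, pandas 2.3.3, scipy 1.17.1 and matplotlib 3.10.9 were used. The scripts were tested on simulated data.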

Additional observations from a re-analysis of the deposited data

How the results depend on the processing

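Under each scaling, all 44 genes stayed higher in the SVZ, as they did with the summed stranded counts and the pseudocount, and no median of a list reversed. The count of other replication and nucleotide genes higher in the SVZ, 53, was 52 with each of the 4 other scalings. The lowest, *Orc6*, had 0.35 as its smallest log2 ratio. With a mean of at least 10 CPM 42 genes remained, without *Orc1* and *Cdt1*. The median of 1.98 ranged from 1.85 to 1.98 under the other alternatives and was 2.55 as a mean. The count of 22 genes at 4-fold was 21 with TMM, DESeq2 or upper-quartile scaling, which put *Mcm4* under it. These scalings put 9.48%, 9.48% and 9.47% of all genes at 4-fold. The count was 20 with the whole interval past 4-fold (1039 of all 12738 genes compared), 15 at 8-fold (6.35% of all genes) and 38 at 2-fold (20.0% of all genes). With a pseudocount of 1 CPM the medians of the mitosis and licensing genes were 5.30 and 2.26. With TMM, DESeq2 and upper-quartile scaling the housekeeping median was 0.49, 0.49 and 0.48, and that of the clamp and clamp loader 1.39, 1.39 and 1.38; with upper-quartile scaling that of strand binding and maturation was 2.04. The summed stranded counts moved 1 gene beyond its interval, *Gins2*, to 2.84. Scaling by TMM, DESeq2 or upper quartiles moved 9, 9 and 13 of the 44 genes beyond their intervals, and the pseudocount moved 9. With the pseudocount the log2 ratio was 4.18 for *Mcm10*, 4.75 for *Cdc6*, 3.13 for *Cdt1*, 3.53 for *Pole2* and 5.31 for *Asf1b*.

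No paired analysis was possible because there was a lone library for the SVZ and another for the cortex, and no replicate could be left out. Genes with few cortex reads, such as *Mcm10* with 15, *Cdt1* with 24 and *Cdc6* with 29, have the widest counting intervals, and differences between animals, sections or cuts are outside every interval given.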
